A study of Mus musculus with 22 samples.

Results

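The 10 genes described here encode proteins that the airway lining secretes against microbes or uses to restrain its own proteases: the complement genes C3 and Cfb, the iron-binding genes Lcn2 and Ltf, the lysozyme and lectin genes Lyz1 and Reg3g, the acute-phase gene Saa3, the chitinase-like gene Chil1 and the antiprotease genes Slpi and Wfdc2. They were taken as a list of symbols and matched to Ensembl identifiers, and all 10 were found among the 21793 protein-coding genes counted. The list uses no measured threshold, but it was drawn up with earlier results of these data known.

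RNA of sorted lung epithelial cells (ECs) was sequenced in bulk from C57BL/6 wildtype (WT) mice and from mice labelled AhR-/- or CYP1B1-/-, both constitutive knockouts backcrossed to C57BL/6. AhR is a ligand-activated transcription factor, and CYP1B1 is a cytochrome P450 enzyme that AhR induces and that metabolizes AhR ligands. Animals of either sex over 7 weeks of age were either naive (steady state; 4 WT, 3 AhR-/- and 3 CYP1B1-/- libraries) or sensitized with extract of the house dust mite (HDM) Dermatophagoides farinae, challenged for 4 days starting 8 days later and taken 72 h after the last instillation (4 libraries of each genotype). The live EpCAM-positive cells were sorted without cells bearing CD45, and per the authors' results and gating scheme also without CD31, so that alveolar and airway epithelial types are pooled in each library.

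Airway epithelium is a secretory barrier. Complement component C3 is cleaved by convertases, one of which contains factor B, and its fragments tag microbes for uptake. Lipocalin 2 binds bacterial siderophores and lactotransferrin binds free iron, lysozymes cut bacterial cell walls, and Reg3g is a C-type lectin directed against Gram-positive bacteria. Serum amyloid A3 and lipocalin 2 belong to the acute-phase response, and much of the group is known to respond to IL-17, IL-22, IL-6 and NF-kappaB. AhR is known in immune cells as a driver of IL-22 production.

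Promoter windows were read for the members because several of them share such inducible control, and the 5 shown belong to genes on which the results below turn. The RefSeq table (GRCm38.p6) held 9 of the 10 members, and Cfb is named only. Each window holds the 250 bases before the RefSeq start of the gene, on the strand of the gene, at chr17:57228137-57228386 (C3, minus strand), chr10:117292869-117293118 (Lyz1, minus strand), chr7:46715677-46715926 (Saa3, minus strand, of which 24 bases lie in an annotated exon), chr6:78468875-78469124 (Reg3g, minus strand) and chr1:134181906-134182155 (Chil1, plus strand). Of the windows not shown, those of Lcn2, Slpi and Wfdc2 lie inside the gene spans given below. Annotated exons cover 197 bases of the Lcn2 window, 146 of Wfdc2 and 21 of Ltf. Capitals mark the motif matches named after the sequences.
C3: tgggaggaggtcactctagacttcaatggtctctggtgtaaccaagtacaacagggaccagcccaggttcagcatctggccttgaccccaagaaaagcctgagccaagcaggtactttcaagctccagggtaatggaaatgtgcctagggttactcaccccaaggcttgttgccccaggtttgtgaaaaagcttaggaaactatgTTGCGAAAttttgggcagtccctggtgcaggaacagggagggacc
Lyz1: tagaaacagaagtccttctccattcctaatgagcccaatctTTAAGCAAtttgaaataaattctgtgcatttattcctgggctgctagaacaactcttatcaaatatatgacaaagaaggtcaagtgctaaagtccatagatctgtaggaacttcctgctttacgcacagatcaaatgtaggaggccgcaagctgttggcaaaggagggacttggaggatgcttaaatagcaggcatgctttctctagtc
Saa3: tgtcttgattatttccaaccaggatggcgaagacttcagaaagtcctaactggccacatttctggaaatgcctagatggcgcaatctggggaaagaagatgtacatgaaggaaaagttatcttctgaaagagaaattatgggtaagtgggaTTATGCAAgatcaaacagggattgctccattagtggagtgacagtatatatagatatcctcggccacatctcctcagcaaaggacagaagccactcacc
Reg3g: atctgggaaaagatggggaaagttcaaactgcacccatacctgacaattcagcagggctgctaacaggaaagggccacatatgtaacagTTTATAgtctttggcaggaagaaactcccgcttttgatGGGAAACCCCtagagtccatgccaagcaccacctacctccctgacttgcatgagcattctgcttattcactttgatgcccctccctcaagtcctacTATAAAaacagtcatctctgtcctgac
Chil1: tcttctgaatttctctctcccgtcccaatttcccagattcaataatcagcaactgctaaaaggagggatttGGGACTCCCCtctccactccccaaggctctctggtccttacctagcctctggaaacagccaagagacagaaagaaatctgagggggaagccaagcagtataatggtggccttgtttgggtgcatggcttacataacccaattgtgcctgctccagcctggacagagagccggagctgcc

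The letters TTGCNNAA, a C/EBP motif, stood on either strand in 6 of the 9 windows (C3, Lcn2, Lyz1, Ltf, Slpi and Saa3), against 9.56% of the 32851 windows of the table. In C3 the match covered bases 45 to 38 before the start, in Saa3 bases 99 to 92 and in Lyz1 bases 209 to 202. A 10-base NF-kappaB motif stood in 2 windows (Reg3g, bases 123 to 114, and Chil1, bases 179 to 170), against 7.25% of all windows. The TATA box letters TATAAA stood in 1 window, that of Reg3g, at bases 161 to 156 and 27 to 22, against 12.4% of all windows. The AhR response element core GCGTG stood in 1 window, that of Wfdc2, against 28.2% of all windows. The letters TTCNNNGAA (STAT) and TGANTCA (AP-1) stood in none of the 9 windows, against 7.02% and 6.75% of all windows. The motifs were searched on both strands, and no window held matches of both C/EBP and NF-kappaB. These matches describe letters in a window and not binding, and a missing match says only that the letters are not in that window.

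Before the members, the libraries themselves were checked against their labels. Total counts ranged from 9654825 to 17878442 per library, and 1 predicted gene, Gm10800, took 9.54 to 29.2% of them at steady state and 0.00819 to 71.9% after HDM. Ahr reads were not lower in the libraries labelled AhR-/-, with 15.5 to 20.1 CPM (read counts scaled to normalized library size) against 6.38 to 12.3 CPM in WT at steady state, and 12.8 to 25.5 against 9.62 to 20.0 CPM after HDM. Cyp1b1 reads were higher in the libraries labelled CYP1B1-/- in both states, with 3.62 to 5.89 CPM at steady state and 4.98 to 13.5 CPM after HDM, against 0.644 to 1.91 and 0.897 to 2.31 CPM in WT. A gene count does not show which part of a gene was deleted, and the groups are therefore given as labelled. All 10 steady-state libraries carried reads of the Y-linked gene Ddx3y (19.7 to 99.8 CPM), while the WT and CYP1B1-/- HDM libraries listed 0. Of the AhR-/- HDM libraries, replicates 3 and 4 stood at 67.3 and 69.6 CPM (148 and 394 reads), and replicates 1 and 2 held 1 read each. The libraries at 19.7 CPM or more, which are the 10 at steady state and these 2, are called Ddx3y-high below. Each state was deposited as a table of its own, so that HDM and the run cannot be told apart between states in any genotype. In WT and CYP1B1-/- the Y-linked reads cannot be told apart from them either. Epcam stood at 68.2 to 312 CPM in every library. The 6 epithelial markers, Epcam among them, summed to 1481 to 2474 CPM at steady state and to less after HDM, at 512 to 880 CPM in WT, 855 to 1070 CPM in AhR-/- and 592 to 878 CPM in CYP1B1-/-. Ptprc, which encodes CD45, stood at 2.02 to 52.6 CPM at steady state and 14.8 to 669 CPM after HDM. The labels do not say that replicates came from separate animals, and the p-values measure the spread between these libraries.

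The members spanned a wide range of levels. Per kilobase of exon, Wfdc2 had the highest steady-state mean of the members in every genotype (41.4 to 56.9 CPM per kb), and Chil1 the highest after HDM (402 CPM per kb in WT, 711 in AhR-/- and 538 in CYP1B1-/-). Cfb and Saa3 had the lowest steady-state means, at 0.0935 to 0.179 CPM per kb. Together the 10 genes made up 0.019 to 0.0618% of the protein-coding counts other than Gm10800 in a steady-state library and 0.0572 to 1.1% in an HDM library (0.0154 to 0.0516% and 0.0158 to 1.1% with Gm10800 counted). In Lcn2, Saa3 and Chil1 all 12 HDM libraries stood above all 10 steady-state libraries, in Cfb and Slpi 11 of the 12 did, and in C3, Lyz1, Ltf, Reg3g and Wfdc2 8 of the 12 did. In bulk RNA, fewer cells of a type and less RNA per cell cannot be told apart.

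**Figure D1:**
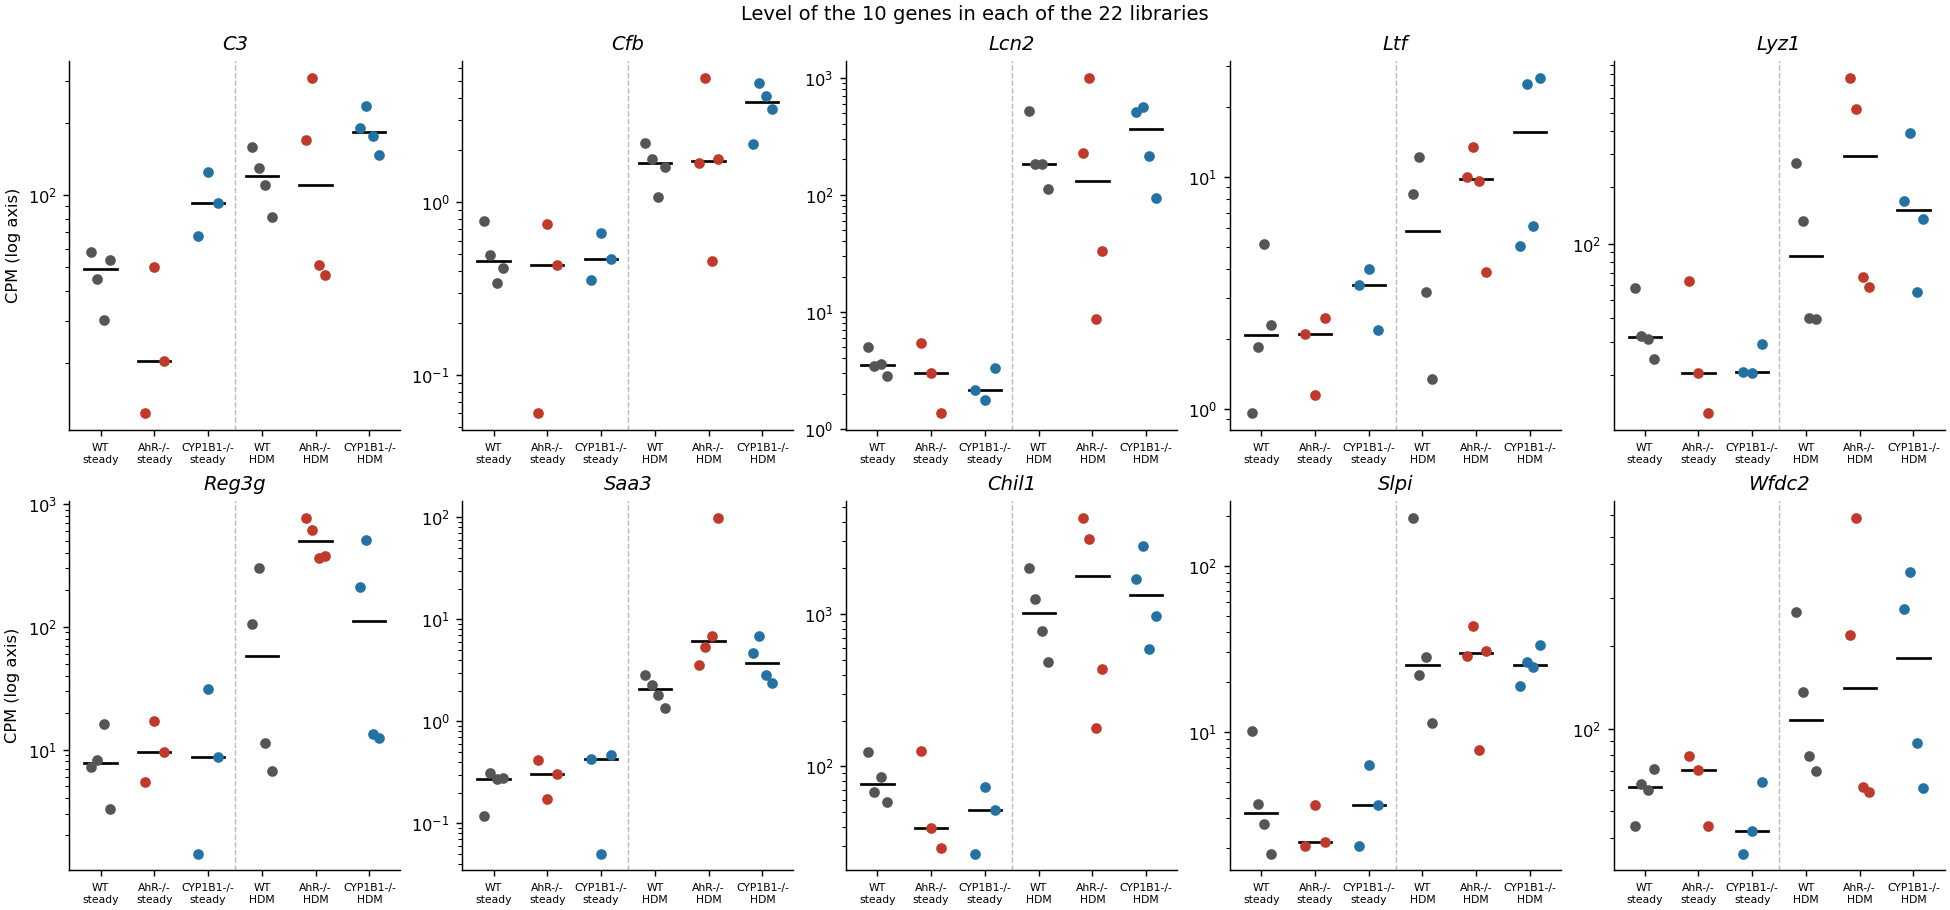
Level of each of the 10 genes in each of the 22 libraries, in CPM on a log axis, with steady state to the left of the dashed line and HDM to its right, 1 point per library and a bar at the group median. Lcn2, Saa3 and Chil1 show no overlap between the states (lowest HDM and highest steady-state values 8.64 and 5.45, 1.35 and 0.471, and 178 and 127 CPM).

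The first question was how each gene differed between HDM and steady state within a genotype. In WT 7 of the 10 genes were higher after HDM (edgeR quasi-likelihood test, adjusted p at most 0.05, adjusted by Benjamini-Hochberg over 16639 genes), where 19% of all genes tested were called higher, and 6 of the 10 had all 4 HDM libraries above all 4 steady-state libraries, where 17.7% of all genes did. In AhR-/- 9 were called higher against 10.6% of all genes, and 6 did not overlap against 12.7%. In CYP1B1-/- 9 were called higher against 15.5% of all genes, and 8 did not overlap against 14.2%. No member was called lower in any genotype. Cfb and Saa3, which are among the genes called higher in each genotype, did not pass the filter on low counts among the steady-state libraries alone. They entered these tests through their HDM reads. The median log2 fold change over the members was 2.39 in WT, 3.44 in AhR-/- and 2.92 in CYP1B1-/-, beside -0.11, -0.05 and -0.02 over all genes. With only the Ddx3y-high libraries 5 members were called in AhR-/-. This leaves 2 AhR-/- HDM libraries against the 3 at steady state and does not separate HDM from the run. Leaving out replicate 4 of the AhR-/- steady-state libraries also left 5 called in AhR-/-, and leaving out replicate 4 of the CYP1B1-/- steady-state libraries left 5 called in CYP1B1-/-.

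**Figure D2:**
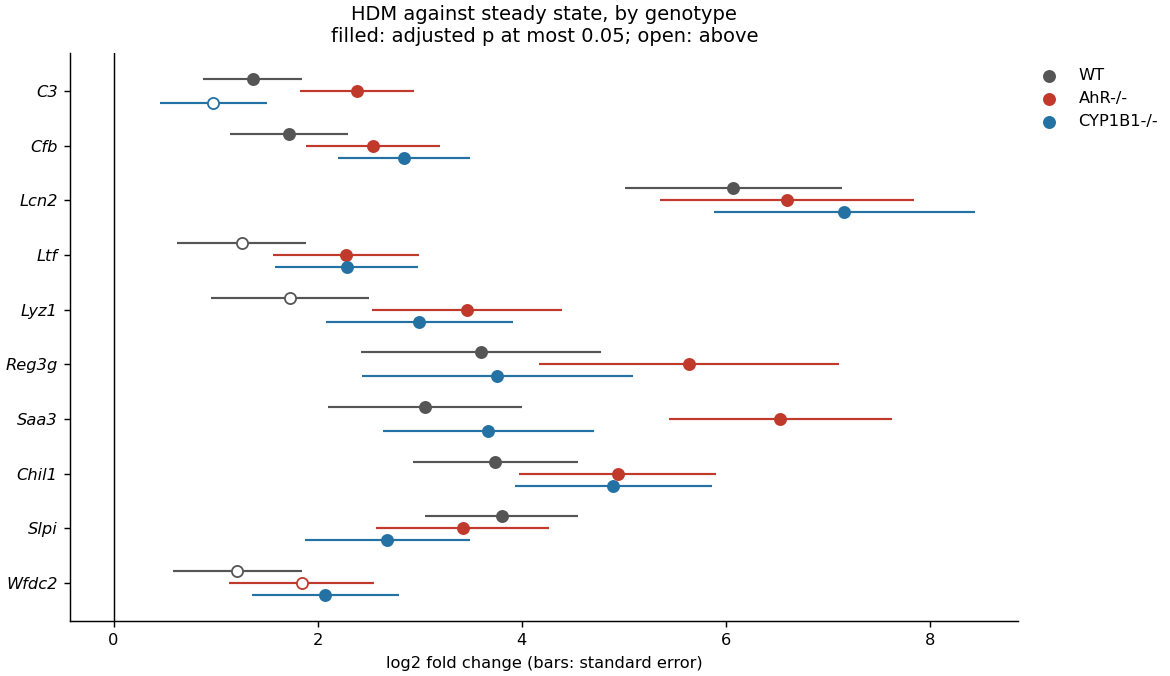
Log2 fold change of HDM against steady state for each gene and genotype, with bars for the standard error, filled where the adjusted p is at most 0.05 and open where it is above. In all 3 genotypes the 10 values lie to the right of 0, from 0.98 (C3 in CYP1B1-/-) to 7.16 (Lcn2 in CYP1B1-/-), and the open ones are Lyz1, Ltf and Wfdc2 in WT, Wfdc2 in AhR-/- and C3 in CYP1B1-/-.

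C3 (ENSMUSG00000024164; GRCm38 chr17:57203970-57228136, minus strand) encodes the central complement component. At steady state it stood at 58.3, 44.6, 30.1 and 53.9 CPM in WT, 12.3, 50.4 and 20.4 CPM in AhR-/- and 67.5, 126 and 93.0 CPM in CYP1B1-/-. After HDM it stood at 159, 130, 110 and 81.4 CPM in WT, 170, 310, 51.4 and 46.7 CPM in AhR-/- and 192, 236, 177 and 147 CPM in CYP1B1-/-. The CYP1B1-/- libraries were high in both states: at steady state all 3 exceeded all 4 WT libraries, and after HDM they lay between 147 and 236 CPM and overlapped WT only at its top. C3 was higher after HDM in WT by 1.36 on the log2 scale (SE 0.49, adjusted p = 0.0295) and in AhR-/- by 2.39 (SE 0.56, adjusted p = 0.00532). In CYP1B1-/- the value was 0.98 (SE 0.53, adjusted p = 0.172), though its HDM libraries all stood above its steady-state libraries. The WT call was lost without HDM replicate 1 (adjusted p = 0.0778) or without steady-state replicate 2 (0.0646) or 3 (0.0909), and the AhR-/- call with only the Ddx3y-high libraries (adjusted p = 0.182).

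Cfb (ENSMUSG00000090231; chr17:34856374-34862518, minus strand) encodes factor B of the alternative pathway, and 79.5% of its exon bases lie within exons of Gm20547 on the same strand, so that its counts are uncertain. It was rare, with 0.776, 0.494, 0.339 and 0.414 CPM in WT, 0.0599, 0.747 and 0.431 CPM in AhR-/- and 0.354, 0.659 and 0.471 CPM in CYP1B1-/- at steady state, from 1 to 13 reads per library. After HDM it stood at 2.20, 1.78, 1.07 and 1.60 CPM in WT, 1.68, 5.24, 0.455 and 1.77 CPM in AhR-/- and 2.16, 4.90, 4.13 and 3.46 CPM in CYP1B1-/-. Of the HDM libraries, only AhR-/- replicate 3, with 1 read, did not exceed every steady-state library. Cfb was higher after HDM in all 3 genotypes, by 1.72 in WT (SE 0.58, adjusted p = 0.0214), 2.54 in AhR-/- (SE 0.65, adjusted p = 0.00898) and 2.84 in CYP1B1-/- (SE 0.65, adjusted p = 0.00141). It did not pass the filter on low counts at steady state alone and entered this test through its HDM reads. The WT call was lost without HDM replicate 1 (adjusted p = 0.063) or without steady-state replicate 3 (0.0634) or 4 (0.0548), and the AhR-/- call with only the Ddx3y-high libraries (0.176).

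Lcn2 (ENSMUSG00000026822; chr2:32384633-32388252, minus strand), which encodes the siderophore-binding lipocalin 2, had the largest log2 fold change of the 10 genes between the states in WT and CYP1B1-/-. In AhR-/- it and Saa3 (6.53) differed by less than their errors, and with only the Ddx3y-high libraries Saa3 had the larger value (7.61 against 2.87). Steady-state levels were 5.01, 3.46, 3.59 and 2.81 CPM in WT, 5.45, 2.99 and 1.35 CPM in AhR-/- and 2.13, 1.77 and 3.30 CPM in CYP1B1-/-. After HDM they were 521, 185, 184 and 113 CPM in WT, 229, 996, 8.64 and 33.0 CPM in AhR-/- and 508, 564, 214 and 93.3 CPM in CYP1B1-/-. All HDM libraries stood above all steady-state libraries, and the AhR-/- libraries held both the highest and the lowest HDM value, with the 2 low ones being the Ddx3y-high replicates 3 and 4. The log2 fold change was 6.07 in WT (SE 1.07, adjusted p = 0.000129), 6.60 in AhR-/- (SE 1.25, adjusted p = 0.00156) and 7.16 in CYP1B1-/- (SE 1.28, adjusted p = 0.000196). These calls were kept under each alternative run, with values from 5.43 to 6.32 in WT, 2.87 to 7.63 in AhR-/- and 6.37 to 7.61 in CYP1B1-/-.

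Ltf (ENSMUSG00000032496; chr9:111019271-111042767, plus strand) encodes lactotransferrin, an iron-binding secretory protein that neutrophil granules also hold. It stood at 0.955, 1.85, 5.15 and 2.30 CPM in WT, 2.10, 1.15 and 2.46 CPM in AhR-/- and 3.40, 4.01 and 2.18 CPM in CYP1B1-/- at steady state. After HDM the values were 8.43, 12.2, 3.20 and 1.35 CPM in WT, 9.92, 13.4, 9.55 and 3.89 CPM in AhR-/- and 5.05, 25.1, 6.14 and 26.6 CPM in CYP1B1-/-. In WT the states overlapped, with HDM replicate 4 below 3 of the 4 steady-state libraries, and in the other genotypes they did not. The log2 fold change was 1.26 in WT (SE 0.63, adjusted p = 0.124), and Ltf was higher by 2.28 in AhR-/- (SE 0.72, adjusted p = 0.0278) and by 2.29 in CYP1B1-/- (SE 0.70, adjusted p = 0.0141). The AhR-/- call was lost in 7 of 20 alternatives, among them leaving out any of the 3 steady-state libraries or HDM replicate 1 or 2, and the CYP1B1-/- call without HDM replicate 4 (0.0502) or steady-state replicate 4 (0.0711). The summed level of 8 neutrophil markers was 1.79 to 35.6 CPM over all libraries, and its part in the Ltf values was not tested.

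Lyz1 (ENSMUSG00000069515; chr10:117287797-117292868, minus strand) is 1 of a pair of neighbouring lysozyme genes, with 16.1% of its stretches of 50 bases present in Lyz2 too, so that reads of the shared stretches may be split between them. Lyz1 took 3.87 to 11.5% of the summed Lyz1 and Lyz2 counts of a library. Its steady-state levels were 58.1, 32.1, 31.2 and 24.3 CPM in WT, 63.5, 20.3 and 12.4 CPM in AhR-/- and 20.6, 20.4 and 29.3 CPM in CYP1B1-/-. After HDM they were 270, 132, 40.0 and 39.7 CPM in WT, 767, 521, 66.4 and 58.7 CPM in AhR-/- and 168, 391, 55.1 and 136 CPM in CYP1B1-/-. In WT HDM replicates 3 and 4, and in AhR-/- HDM replicate 4, fell within the steady-state range, while in CYP1B1-/- the states did not overlap. The log2 fold change was 1.73 in WT (SE 0.78, adjusted p = 0.0852), and Lyz1 was higher by 3.46 in AhR-/- (SE 0.93, adjusted p = 0.0127) and 3.00 in CYP1B1-/- (SE 0.91, adjusted p = 0.0139). The AhR-/- call was lost without steady-state replicate 3 (0.071) or 4 (0.0772) and with only the Ddx3y-high libraries (1.11, adjusted p = 0.237), and the CYP1B1-/- call without steady-state replicate 3 (0.0619).

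Reg3g (ENSMUSG00000030017; chr6:78466269-78468872, minus strand), the C-type lectin whose promoter is shown above, had steady-state levels of 7.22, 8.21, 16.1 and 3.27 CPM in WT, 5.39, 17.1 and 9.60 CPM in AhR-/- and 1.42, 30.9 and 8.72 CPM in CYP1B1-/-. After HDM they were 105, 301, 11.3 and 6.73 CPM in WT, 773, 619, 366 and 378 CPM in AhR-/- and 210, 513, 13.4 and 12.3 CPM in CYP1B1-/-. All 4 AhR-/- libraries were high after HDM, whereas in WT and in CYP1B1-/- replicates 1 and 2 were high and replicates 3 and 4 lay within the steady-state range. Reg3g was higher after HDM by 3.60 in WT (SE 1.18, adjusted p = 0.0189), 5.64 in AhR-/- (SE 1.47, adjusted p = 0.0104) and 3.76 in CYP1B1-/- (SE 1.33, adjusted p = 0.033). The WT call was lost without HDM replicate 2 (adjusted p = 0.11) or steady-state replicate 4 (0.0524), with limma voom (1.06, 0.288) and with the replicate number as a block (0.0696). In AhR-/- it was lost without steady-state replicate 1 (0.0522) or 4 (0.0573). In CYP1B1-/- it was lost without HDM replicate 2 (0.0886) or steady-state replicate 2 (0.0925) or 4 (0.12), with no filter on low counts (0.0564) and with the replicate block (0.177).

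Saa3 (ENSMUSG00000040026; chr7:46711998-46715700, minus strand) encodes an acute-phase serum amyloid A made outside the liver. At steady state each library held 1 to 8 reads of it, or 0.119, 0.309, 0.271 and 0.276 CPM in WT, 0.419, 0.172 and 0.308 CPM in AhR-/- and 0.425, 0.0507 and 0.471 CPM in CYP1B1-/-. After HDM it stood at 2.87, 2.28, 1.83 and 1.35 CPM in WT, 3.55, 5.32, 6.82 and 98.3 CPM in AhR-/- and 4.69, 6.92, 2.82 and 2.40 CPM in CYP1B1-/-. The states did not overlap, and AhR-/- HDM replicate 4, with 556 reads, stood far above the rest. Saa3 was higher after HDM by 3.05 in WT (SE 0.95, adjusted p = 0.0141), 6.53 in AhR-/- (SE 1.09, adjusted p = 0.000757) and 3.67 in CYP1B1-/- (SE 1.03, adjusted p = 0.00817). It did not pass the filter on low counts at steady state alone and entered this test through its HDM reads. Over the alternatives the AhR-/- value ranged from 3.92 to 7.61 and stayed called, the WT call was lost with limma voom (adjusted p = 0.0501), and the CYP1B1-/- call without steady-state replicate 3 (adjusted p = 0.0503).

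Chil1 (ENSMUSG00000064246; chr1:134182176-134190181, plus strand) encodes a chitinase-like lectin without enzyme activity. Its steady-state levels were 125, 68.0, 85.1 and 58.4 CPM in WT, 127, 39.2 and 29.1 CPM in AhR-/- and 26.8, 73.0 and 52.1 CPM in CYP1B1-/-. After HDM they were 1992, 1256, 778 and 481 CPM in WT, 4266, 3098, 178 and 435 CPM in AhR-/- and 1685, 2788, 592 and 972 CPM in CYP1B1-/-. No HDM library fell into the steady-state range, the nearest being AhR-/- replicate 3. Chil1 was higher by 3.74 in WT (SE 0.81, adjusted p = 0.000802), 4.94 in AhR-/- (SE 0.97, adjusted p = 0.00181) and 4.90 in CYP1B1-/- (SE 0.97, adjusted p = 0.00042), and stayed called under each alternative run. With only the Ddx3y-high libraries the AhR-/- value was 2.38.

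Slpi (ENSMUSG00000017002; chr2:164354070-164389095, minus strand) encodes secretory leukocyte protease inhibitor, which blocks neutrophil elastase. It stood at 10.1, 3.64, 2.78 and 1.84 CPM in WT, 2.04, 3.62 and 2.15 CPM in AhR-/- and 2.06, 6.29 and 3.59 CPM in CYP1B1-/- at steady state. After HDM it stood at 194, 21.8, 28.3 and 11.2 CPM in WT, 28.3, 43.2, 7.73 and 30.7 CPM in AhR-/- and 18.9, 26.2, 24.4 and 33.4 CPM in CYP1B1-/-. WT replicate 1 was the highest of its group in both states, and no state overlapped the other within a genotype. Slpi was higher after HDM by 3.80 in WT (SE 0.75, adjusted p = 0.000397), 3.42 in AhR-/- (SE 0.84, adjusted p = 0.00778) and 2.68 in CYP1B1-/- (SE 0.81, adjusted p = 0.013). The WT call was kept under each alternative run, with values from 2.15 to 4.54, the AhR-/- call was lost without steady-state replicate 4 (0.0502), and the CYP1B1-/- call without steady-state replicate 4 (0.0575).

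Wfdc2 (ENSMUSG00000017723; chr2:164562413-164568510, plus strand) encodes a secreted protein with the same whey acidic protein (WAP) fold as Slpi. Steady-state levels were 44.4, 63.1, 59.7 and 71.4 CPM in WT, 79.3, 70.9 and 44.4 CPM in AhR-/- and 35.1, 42.5 and 63.8 CPM in CYP1B1-/-. After HDM they were 266, 137, 79.4 and 70.4 CPM in WT, 220, 588, 61.4 and 58.7 CPM in AhR-/- and 274, 373, 89.2 and 61.0 CPM in CYP1B1-/-. In each genotype replicates 1 and 2 were high after HDM and replicates 3 and 4 lay in or near the steady-state range. The log2 fold change was 1.21 in WT (SE 0.63, adjusted p = 0.137) and 1.84 in AhR-/- (SE 0.71, adjusted p = 0.0696), and Wfdc2 was higher by 2.08 in CYP1B1-/- (SE 0.72, adjusted p = 0.0293). The CYP1B1-/- call was lost in 5 of 18 alternatives, among them leaving out any of its 3 steady-state libraries or HDM replicate 2 and the replicate block (0.0908), and the AhR-/- value passed in 6 of 20 alternatives. It was 2.72 (adjusted p = 0.00501) without the Ddx3y-high HDM libraries and 0.05 (adjusted p = 0.941) with only the Ddx3y-high libraries.

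The second question was whether the genotypes differed from WT within a state. At steady state 8 of the 10 genes passed the filter on low counts, Cfb and Saa3 not being tested, and none was called in the libraries labelled AhR-/- (edgeR quasi-likelihood test; 0% of 15547 genes called). At an unadjusted p under 0.05 none of the 8 differed, beside 263 genes or 1.69% of all, and DESeq2, limma voom and the likelihood ratio test called none of them. Log2 fold changes in AhR-/- against WT ran from -0.88 (Slpi, SE 0.57) and -0.78 (C3, SE 0.41) to 0.26 (Reg3g, SE 0.74), which was -0.27 without AhR-/- replicate 3, below 0 without WT replicate 4 and -0.0193 with the replicate number as a block.

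In the libraries labelled CYP1B1-/- at steady state none of the 8 was called either, where 0.0129% of all genes were, and the other tests again called none of them. C3 was the 1 member at an unadjusted p under 0.05 (901 genes or 5.8% of all), with a log2 fold change of 0.95 (SE 0.39, adjusted p = 0.822) and all 3 CYP1B1-/- libraries above all 4 WT libraries, as in 1.78% of all genes. The other members ran from -0.84 (Chil1, SE 0.50) to 0.55 (Reg3g, SE 0.74), and Reg3g was -0.83 without CYP1B1-/- replicate 3, the library at 30.9 CPM, and -0.0181 with the replicate number as a block.

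After HDM all 10 genes were tested, and 1 of them, Saa3, was called in AhR-/- against WT, in the higher direction, where 22.1% of the 14161 genes were called and 9.22% called higher. Its log2 fold change was 3.81 (SE 1.02, adjusted p = 0.029), with the 4 AhR-/- libraries at 3.55 to 98.3 CPM above the 4 WT libraries at 1.35 to 2.87 CPM. Without AhR-/- replicate 4 the value was 1.30 (adjusted p = 0.107), and without both Ddx3y-high libraries it was 1.05 (adjusted p = 0.28). The call was also lost without AhR-/- replicate 1 (4.19, adjusted p = 0.0526) or 3 (4.07, 0.0737) and without WT replicate 1 (3.94, 0.0584), 3 (3.81, 0.0929) or 4 (3.66, 0.0888), and with the replicate number as a block (2.84, adjusted p = 0.112). The number of all genes called fell with it: 0 without AhR-/- replicate 1, 3 or 4 or WT replicate 3 or 4, and 885 without WT replicate 1, from 3129.

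Reg3g was the other member whose 4 AhR-/- libraries, at 366 to 773 CPM, stood above all 4 WT libraries, at 6.73 to 301 CPM, which 9.6% of all genes did in that direction. Its log2 fold change was 2.18 (SE 1.30, adjusted p = 0.235). Without WT replicate 2 it was 3.85 (adjusted p = 0.0641), and limma voom with sample weights gave 4.34 (adjusted p = 0.01). The 6 club cell markers, among them Scgb1a1, summed to 1787 to 8183 CPM in the AhR-/- HDM libraries and 208 to 1863 CPM in the WT HDM libraries, and their part in the Reg3g values was not tested.

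For the remaining 8 genes the AhR-/- and WT libraries overlapped after HDM. The values ran from -1.06 (Slpi, SE 0.68, adjusted p = 0.273) to 1.54 (Lyz1, SE 0.90, adjusted p = 0.225), with a median of 0.67 over all 10 beside -0.00175 over all genes. For Slpi the value was 0.37 without WT replicate 1, the library at 194 CPM. Lcn2 was 0.39 (SE 1.07) and -1.47 without AhR-/- replicate 2, the library at 996 CPM, and limma voom gave -2.41 (adjusted p = 0.0456). C3, Cfb and Wfdc2 likewise turned below 0 without that library (-0.47, -0.27 and -0.29).

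In the libraries labelled CYP1B1-/- no member was called against WT after HDM (0% of 14161 genes; 233 genes or 1.65%, and none of the members, at an unadjusted p under 0.05). DESeq2, limma voom and the likelihood ratio test called no member. Of the 10 values 9 lay above 0, with a median of 0.77 beside -0.01 over all genes, and the farthest from 0 relative to their errors were Cfb at 1.13 (SE 0.54), Ltf at 1.34 (SE 0.70), Slpi at -1.14 (SE 0.68) and C3 at 0.73 (SE 0.52). Without WT replicate 1 the Slpi value was 0.29. These comparisons share their WT libraries with those of AhR-/-.

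**Figure D3:**
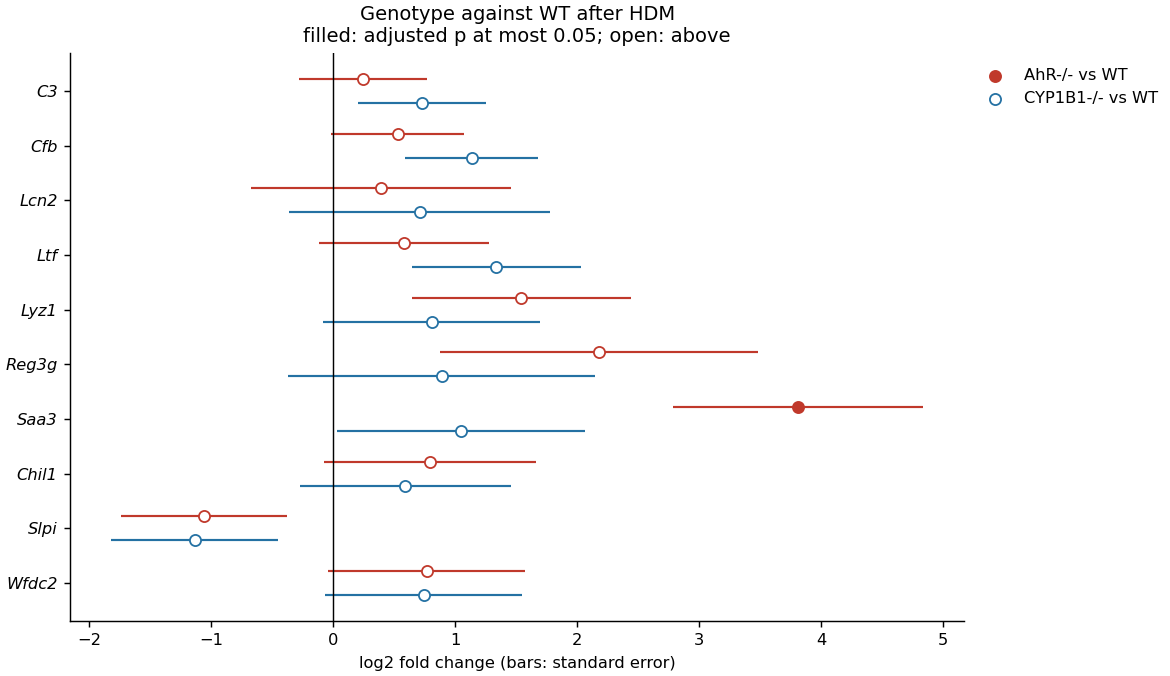
Log2 fold change against WT after HDM for each gene, red for the libraries labelled AhR-/- and blue for those labelled CYP1B1-/-, with bars for the standard error, filled where the adjusted p is at most 0.05. Saa3 in AhR-/- at 3.81 is the 1 filled point, and Slpi is the 1 gene below 0 in both genotypes, where without WT replicate 1 the values are 0.37 and 0.29.

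**Figure D4:**
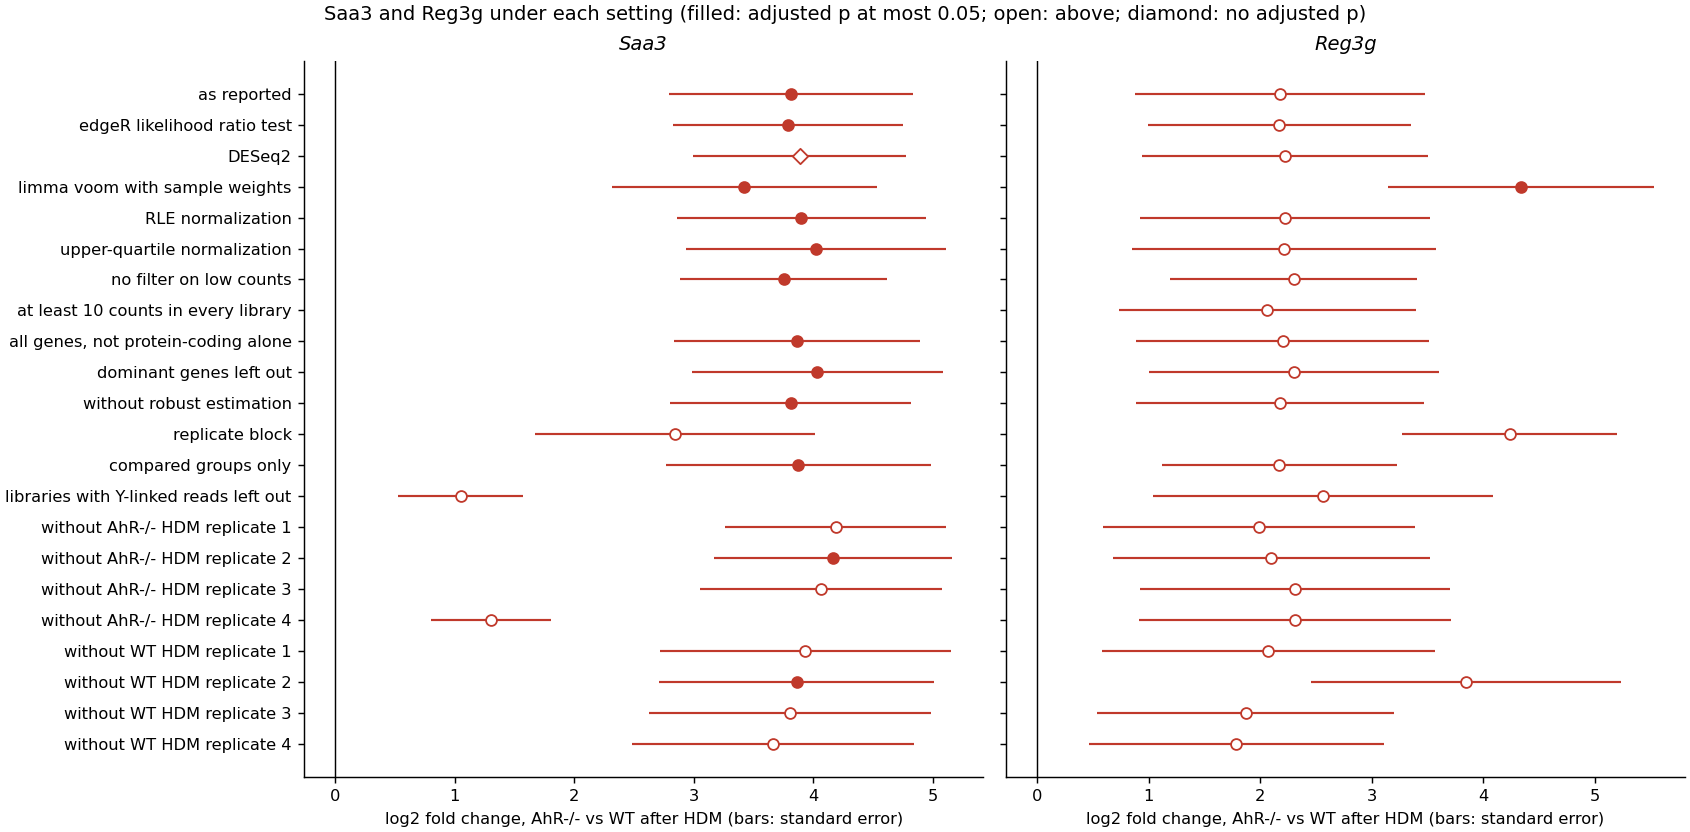
Log2 fold change of Saa3 and Reg3g in AhR-/- against WT after HDM under each alternative, 1 line per setting, with bars for the standard error, filled where the adjusted p is at most 0.05 and a diamond where DESeq2 gave none. Saa3 runs from 1.05 to 4.19 and Reg3g from 1.79 to 4.34.

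The difference between the genotypes in their change from steady state to HDM was tested directly. For AhR-/- no member was called (0% of 16639 genes, with 3050 genes or 18.3% at an unadjusted p under 0.05). Saa3 was the 1 member under that unadjusted limit, with a difference of 3.48 on the log2 scale (SE 1.44, adjusted p = 0.211 by edgeR's quasi-likelihood test), which was 1.01 without AhR-/- HDM replicate 4. DESeq2 called Saa3 (3.54, adjusted p = 0.0481) and limma voom called Reg3g (4.18, adjusted p = 0.00838), beside 1236 and 5042 genes called by those tools and 221, with no member, by the likelihood ratio test. For CYP1B1-/- no member was called (0% of genes; 382 or 2.3% at an unadjusted p under 0.05, with no member among them), nor by those 3 tools. The larger state differences of some members in AhR-/- than in WT are therefore not shown to differ between the genotypes.

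Library composition moved with several members. The 6 alveolar type 2 (AT2) markers, surfactant genes among them, summed to 16734, 8812, 4608 and 2756 CPM in the WT HDM libraries, 53896, 23417, 6227 and 5247 CPM in AhR-/- and 13780, 26562, 3749 and 9499 CPM in CYP1B1-/-, against 695 to 4207 CPM at steady state. The 6 alveolar type 1 markers summed to 13261 to 22454 CPM at steady state and to 546 to 4150 CPM in WT, 3006 to 17412 CPM in AhR-/- and 393 to 3744 CPM in CYP1B1-/- after HDM. The 7 pan-hematopoietic markers summed to 4.51 to 161 CPM at steady state and to 1115 to 3562 CPM in WT, 97.2 to 680 CPM in AhR-/- and 137 to 3473 CPM in CYP1B1-/- after HDM. Of the secretory cell types, the 6 goblet markers summed to 3.95 to 11.0 CPM at steady state and to 33.1 to 428 CPM in WT, 203 to 779 CPM in AhR-/- and 9.84 to 405 CPM in CYP1B1-/- after HDM. The 6 club markers summed to 378 to 4614 CPM at steady state and to 208 to 1863 CPM in WT, 1787 to 8183 CPM in AhR-/- and 290 to 5069 CPM in CYP1B1-/- after HDM. No marker list was at 0 in every library of a group, no member belongs to any of the lists, and the part of these cell types in the differences above was not tested.

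Deviations of log2 CPM from the group mean describe how a member varied among libraries of the same group. These correlations are over 12 HDM or 10 steady-state libraries that share depth and composition, and they carry no test. With the AT2 markers Pearson's r was 0.99 for Chil1 after HDM and 0.94 at steady state, 0.93 and 0.91 for Lyz1, and 0.94 and 0.78 for Lcn2. C3 (0.93 and -0.47) and Wfdc2 (0.90 and 0.35) followed the AT2 markers after HDM and not at steady state. Reg3g followed the club markers, with 0.94 after HDM and 0.88 at steady state, and the goblet markers after HDM alone (0.89 and -0.44). The club list holds Scgb3a1, the gene found below to be most like Reg3g. Members had high values with other lists after HDM as well, such as C3 with T cell (0.84) and Wfdc2 with goblet markers (0.82). Saa3 followed neither the AT2 nor the club markers. Its strongest value after HDM was -0.70 with the B cell markers, beside -0.62 with the pan-hematopoietic markers. AhR-/- HDM replicate 4, at 98.3 CPM of Saa3, had the lowest pan-hematopoietic sum of the HDM libraries (97.2 CPM). Among the members themselves, over the 22 libraries, Lyz1 with Chil1 (0.92), Lcn2 with Wfdc2 (0.89) and Lcn2 with Chil1 (0.87) stood highest, C3 with Saa3 lowest (-0.51), and the median of the 45 pairs was 0.40.

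**Figure D5:**
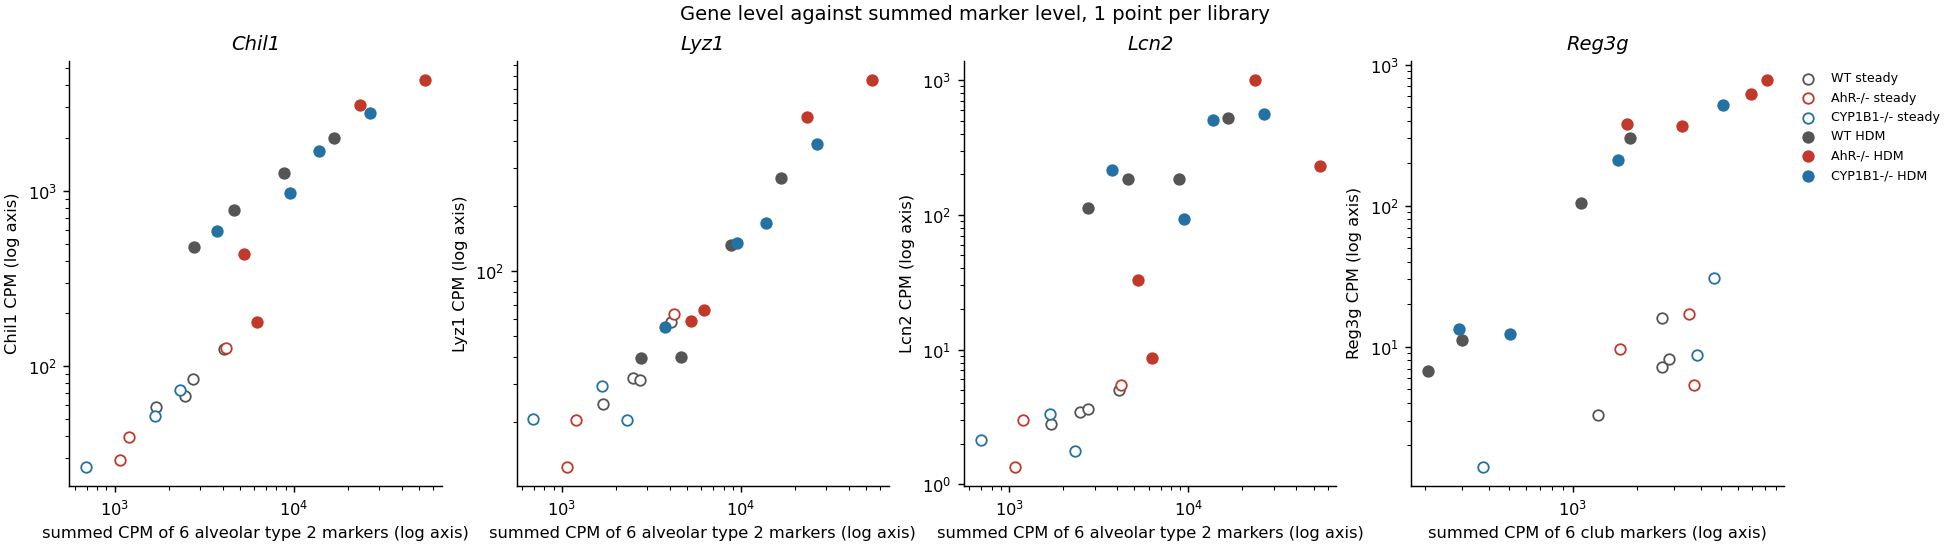
Level of Chil1, Lyz1 and Lcn2 against the summed CPM of 6 AT2 markers, and of Reg3g against that of 6 club cell markers, 1 point per library on log axes, open at steady state and filled after HDM. Chil1 and Lyz1 climb with the AT2 markers in both states, and Reg3g climbs with the club markers at a higher level after HDM.

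The genes whose deviations were most like those of a member were searched among 9547 other protein-coding genes, over the 22 libraries. For Chil1 they were C6, a terminal complement gene, and Cxcl15, a lung chemokine gene (r = 0.98 for both), and for Reg3g the secretoglobin gene Scgb3a1 (0.99) and Bpifb1 (0.94). Lcn2 was most like Tmprss4 (0.96) and Fasn (0.95), Lyz1 like Rerg and Rab27b (0.96 for both), Wfdc2 like Car8 (0.95) and S100g (0.91), and C3 like Col6a1 (0.85) and Osgin1 (0.84). Cfb was most like C1ra (0.82), which encodes a protease of the classical complement pathway. The remaining members had weaker neighbours, Ets1 (0.78) and Krt10 (0.75) for Ltf, Ly6a and Ifitm3 (0.76 for both) for Slpi, and Mical2 (0.69) and Wfs1 (0.62) for Saa3. Of these, Ets1 had -0.02 with Ltf at steady state and 0.91 after HDM, and Wfs1 had -0.20 and 0.86 with Saa3.

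Other complement genes were counted by role. Of the initiation and convertase genes 11 of 16 were tested between the states in WT, and 4 were higher after HDM and 1 lower: the properdin gene Cfp (6.95, SE 1.05), the C1q chain genes C1qb (3.82, SE 1.10) and C1qa (3.14, SE 1.01) and the mannose-binding lectin gene Mbl1 (2.10, SE 0.83) were higher, and C4b was lower at -1.92 (SE 0.67). Of 7 terminal components 1 was higher, C6 at 2.06 (SE 0.61). Of 10 regulators tested, which shield host cells, none was higher and 4 were lower: Cd59a (-3.40, SE 0.56), Serping1 (-1.96, SE 0.64), Cd46 (-1.33, SE 0.39) and Cr1l (-1.22, SE 0.39). The alveolar type 1 markers were lower with them, at 546 to 4150 CPM against 17057 to 20501 CPM in WT, and their part was not tested. Of 7 receptors 3 were higher, the leukocyte integrin genes Itgax (7.16, SE 1.22), Itgb2 (5.46, SE 1.16) and Itgam (3.67, SE 0.83). The pan-hematopoietic markers moved, as given above, in the direction of these receptors and of the higher initiation genes, and their part was not tested. The medians were 0.81 for initiation, 0.19 for terminal components, -0.73 for regulators and 0.98 for receptors, beside -0.11 over all genes, of which 19% were called higher and 19.4% lower.

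In AhR-/- against WT after HDM the same lists held 3 of 9 regulators called higher, Cd59a at 3.02 (SE 0.66, adjusted p = 0.0261), Cd46 at 1.66 (SE 0.51, adjusted p = 0.0391) and Cr1l at 1.03 (SE 0.27, adjusted p = 0.0278). Cd59a stood at 10.3 to 34.3 CPM in AhR-/- and 1.09 to 4.82 CPM in WT. Of the receptors 3 of 7 were lower, Itgam (-2.51), Itgb2 (-2.62) and Itgax (-2.98), and of 11 initiation genes 1 was lower, Cfp at -2.94 (SE 0.87, adjusted p = 0.0359). The edgeR quasi-likelihood test called none of the 3 terminal components tested, and none passed by its unadjusted p, the lowest being 0.0746 for C8g. The background was 9.22% of all genes higher and 12.9% lower. The 7 pan-hematopoietic markers moved in the direction of the receptors and of Cfp, at 97.2 to 680 CPM against 1115 to 3562 CPM, and the 6 alveolar type 1 markers in that of the regulators, at 3006 to 17412 CPM against 546 to 4150 CPM. The part of either in these values was not tested.

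Among 28 other secreted defence genes 21 were tested between the states in WT, and 7 were higher and 2 lower. The peptidoglycan-binding Pglyrp1 (5.82, SE 0.75), Retnla (7.72, SE 1.18), the IgA transporter Pigr (4.61, SE 0.76) and the surfactant collectin Sftpd (3.22, SE 0.85) were higher, and Rnase4 (-1.98, SE 0.61) and the airway protein gene Bpifa1 (-1.90, SE 0.75) were lower. Of 5 other chitinase genes Chil4 (6.09, SE 1.08) and Chia1 (3.33, SE 0.78) were higher, and Ctbs (-0.87, SE 0.33) was lower. Of 12 WAP and antiprotease genes 6 were higher, among them Serpina3g (6.55, SE 0.86), Wfdc17 (5.39, SE 0.91), Cst3 (4.70, SE 0.72) and Serpinb1a (4.62, SE 0.69), and 3 were lower, Wfdc1 (-2.10), Wfdc3 (-1.28) and Serpinb6b (-1.23). Of 15 iron genes 7 were higher, among them Steap4 (2.97, SE 0.65), transferrin Trf (2.40, SE 0.56), Lrp1 (1.78, SE 0.43) and the ferritin gene Ftl1 (1.51, SE 0.35), and the importer Slc11a2 was lower (-0.82, SE 0.22). The medians were 1.28, 2.82, 1.12 and 0.85 for these 4 lists, beside -0.11 over all genes, of which 19% were called higher and 19.4% lower. The pan-hematopoietic markers were higher too, at 1115 to 3562 CPM after HDM against 4.51 to 161 CPM in WT, and their part in these values was not tested.

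In AhR-/- against WT after HDM the edgeR quasi-likelihood test called no gene of the secreted, chitinase or iron lists. The nearest was Bpifa1 at 2.58 (SE 0.88, adjusted p = 0.0527), with 34.1 to 145 CPM in AhR-/- and 4.26 to 30.4 CPM in WT. Other tools called more of the listed genes, as given below. Of 10 WAP and antiprotease genes the cystatin gene Cst3 (-2.57, SE 0.80, adjusted p = 0.0411) and Serpina3g (-1.97, SE 0.64, adjusted p = 0.0447) were lower. The pan-hematopoietic markers were lower in the same libraries (97.2 to 680 CPM against 1115 to 3562 CPM), and their part was not tested.

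Genes of the IL-17, IL-22, IL-6 and NF-kappaB inputs were the largest list. Between the states in WT 15 of 30 were higher, beside 19% of all genes, and 6 were lower, which is near the 19.4% of all genes, with the chemokine genes Ccl20 (9.10, SE 1.06) and Cxcl5 (5.73, SE 0.90), Nfkb1 (3.74, SE 0.45) and Zc3h12a (3.58, SE 0.51) among the former. The receptor genes Il17re (-3.08, SE 0.47), Il6st (-1.63, SE 0.29) and Il1r1 (-1.51, SE 0.30) and the IL-17 adaptor gene Traf3ip2 (-1.24, SE 0.25) were among the latter. In AhR-/- against WT after HDM 7 of the 30 were called, beside 9.22% of all genes higher and 12.9% lower. The 2 higher were Cebpb (2.30, SE 0.70, adjusted p = 0.0378) and Il10rb (0.91, SE 0.27, adjusted p = 0.0347), a subunit of the IL-22 receptor. Of the 5 lower, Relb (-2.67, SE 0.67), Nfkb2 (-1.94, SE 0.54), Myd88 (-1.33, SE 0.33) and Stat3 (-1.05, SE 0.32) had the lowest p. Their direction was that of the pan-hematopoietic markers, both here and, for the genes higher in WT, between the states, and the part of those markers was not tested. Of the 108 listed genes tested after HDM 16 were called in AhR-/- in all, 23 with the likelihood ratio test, 27 with DESeq2 and 49 with limma voom, and none with the replicate block, none without the 2 Ddx3y-high libraries, and none without AhR-/- replicate 1, 3 or 4 or WT replicate 3 or 4, where no gene was called at all.

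For the libraries labelled CYP1B1-/- the edgeR quasi-likelihood test called none of the listed genes against WT, with 4 of 108 at an unadjusted p under 0.05 after HDM and 7 of 102 at steady state, and for AhR-/- at steady state none, with 4 of 102. DESeq2, limma voom and the likelihood ratio test called none of them in these 3 comparisons either. Between the states, 49 of the 118 listed genes were called in AhR-/- and 57 in CYP1B1-/-, beside 63 in WT. In AhR-/- 5 of 11 initiation genes were higher and none lower, in CYP1B1-/- 4 and none. Of the 10 regulators none was called in AhR-/-, and 1 was higher and 1 lower in CYP1B1-/-. Receptors had 4 of 7 higher in both, and terminal components 1 and 2 of 7 higher. Secreted defence genes had 9 and 8 of 21 higher and none lower, chitinases 3 of 5 higher in both, antiproteases 5 of 12 higher in both with none and 1 lower, and iron genes 5 of 15 higher and 1 lower in both. Of the 30 input genes 10 were higher and 6 lower in AhR-/-, and 13 were higher and 9 lower in CYP1B1-/-. The background was 10.6% higher and 10.1% lower of all genes in AhR-/-, and 15.5% higher and 17.9% lower in CYP1B1-/-. The pan-hematopoietic markers were higher after HDM too, at 97.2 to 680 CPM against 8.43 to 23.9 CPM in AhR-/-. In CYP1B1-/- they stood at 137 to 3473 CPM against 7.40 to 27.2 CPM, and their part was not tested.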

How the data were processed

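Per the labels and the methods, RNA of sorted ECs was reverse transcribed with template switching, amplified, and sequenced on a NextSeq500. The authors trimmed reads with bbduk, aligned them by GSNAP to mm10 (GRCm38), and made the gene counts by featureCounts 2.0.0 from the annotation of Ensembl release 99. The submitters' processing notes also name bcl2fastq 2.19.1. The deposited values are whole-number read counts per gene, not normalized, in 1 table for each state (4, 3 and 3 libraries at steady state, 4 of each genotype after HDM). The strand setting is not given in the sources used here, and reads carry no molecular identifiers, so that counts cover amplified copies.

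Of 54373 genes, 54147 were matched to GENCODE M21 by identifier, and the 21793 protein-coding ones were used. Total counts are given in the report, and 0 columns were left unused. Tests were made with edgeR 4.0.16 (R 4.3.3): filterByExpr with its limits of 10 counts per library and 15 in total, TMM factors, then glmQLFit (robust) and glmQLFTest, at a Benjamini-Hochberg adjusted p of at most 0.05. Genotypes were compared within each table (15547 and 14161 genes), and states and their interaction with genotype in 1 fit of all 22 libraries (16639 genes). Standard errors were derived as |log2 fold change| over the root of the F statistic. CPM use the TMM library sizes of that fit, and log2 CPM add a count of 1. The fits were tested on simulated data. Alternatives were the likelihood ratio test, DESeq2 1.42.0, limma 3.58.1 voom with sample weights, RLE and upper-quartile normalization, other filters and gene sets, the replicate number as a block, fits of the compared groups alone, and leaving out each library or the 2 Ddx3y-high AhR-/- HDM libraries. The state comparison in AhR-/- with only the Ddx3y-high libraries was added after seeing the data.

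The 10 genes and the pathway and marker lists were chosen with earlier results of these data known. All 10 genes are named in each comparison. Of each pathway list up to 4 called genes per direction with the lowest p are named, or, with none called, up to 3 with the lowest p, and for likeness the 2 genes with the highest correlation and a mean of at least 5 CPM, of which 1 is not reported here. Whether replicate numbers pair samples was checked by the correlation of deviations from the group means: 4 of 12 same-number pairs after HDM (-0.56 to 0.75) and 4 of 8 at steady state (-0.03 to 0.23) were over 0.1, so that the numbers were not taken as pairs.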

Additional observations from a re-analysis of the deposited data

Results flagged for a closer look

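Dixon's criterion singled out 1 library among 40 gene-by-group sets of 4, where chance gives about 2 (1 in 20). It was Saa3 at steady state in WT, where replicate 1 lay lowest at a log2 CPM of -2.40, or 0.119 CPM from 2 reads, beside 0.271 to 0.309 CPM in the other 3 libraries. A count of 2 lies under the floor of 3 counts.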

How the results depend on the processing

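Of the log2 fold changes of single genes under the alternatives, 1691 kept their direction and their side of the threshold, 49 lost and 13 gained significance, and 47 changed sign; 109 levels moved by less than 1 SD and 11 by more. The number of the 10 genes called in AhR-/- against WT after HDM, 1 as reported, was 0 with DESeq2 (which gave Saa3 no adjusted p), 3 with limma voom, 0 with at least 10 counts in every library (which leaves out Cfb and Saa3), 0 with the replicate block, 0 without the Ddx3y-high libraries, and 0 to 1 leaving out 1 library. Between the states it ranged from 5 to 8 in WT, from 5 to 10 in AhR-/- and from 5 to 9 in CYP1B1-/- leaving out 1 library, and was 5 with only the AhR-/- Ddx3y-high libraries. For the interaction of AhR-/- with state, 0 as reported, it was 1 with DESeq2 and 1 with limma voom.

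With the replicate block, signs turned for Reg3g at steady state in AhR-/- (-0.0193) and CYP1B1-/- (-0.0181), Slpi at steady state in CYP1B1-/- (0.0837), C3 (-0.0929) and Lcn2 (-0.9996) after HDM in AhR-/-, and the interactions of Lcn2 with AhR-/- (-0.22) and Reg3g with CYP1B1-/- (-0.28). The block also ended the calls of Saa3 in AhR-/- after HDM (2.84, adjusted p = 0.112), and between the states of Reg3g in WT and CYP1B1-/-, Ltf in AhR-/- and Wfdc2 in CYP1B1-/-. With limma voom signs turned for Slpi at steady state in CYP1B1-/- (0.0168), for C3 (-0.80), Lcn2 (-2.41), Chil1 (-1.34) and Wfdc2 (-0.29) after HDM in AhR-/-, and for the AhR-/- interactions of C3 (-0.17), Lcn2 (-2.08), Slpi (0.28), Chil1 (-0.57) and Wfdc2 (-0.51). The interaction of Slpi with AhR-/- was 0.0585 with upper-quartile normalization and 0.0484 without the Ddx3y-high libraries.

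Leaving out 1 library at a time, the ranges that crossed 0 were, in AhR-/- against WT at steady state, -0.82 to 0.16 for Lcn2, -1.21 to 0.17 for Lyz1, -0.71 to 0.15 for Ltf, -0.27 to 0.73 for Reg3g and -0.0799 to 0.33 for Wfdc2. In CYP1B1-/- at steady state they were -0.00125 to 0.90 for Ltf, -0.83 to 1.09 for Reg3g and -0.79 to 0.47 for Slpi. After HDM they were -0.47 to 0.53 for C3, -0.27 to 0.75 for Cfb, -1.47 to 0.87 for Lcn2, -1.40 to 0.37 for Slpi and -0.29 to 1.13 for Wfdc2 in AhR-/-, and -0.25 to 2.53 for Reg3g and -1.48 to 0.29 for Slpi in CYP1B1-/-. For the interaction with AhR-/- they were -1.30 to 1.17 for Lcn2, -1.12 to 1.27 for Slpi and -0.43 to 1.16 for Wfdc2, and with CYP1B1-/- -0.94 to 1.81 for Reg3g and -1.85 to 0.54 for Slpi. The cause was not tested.

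Over all genes, calls in AhR-/- against WT after HDM went from 3129 to 6669 with limma voom, 1802 with no filter, 1 with the replicate block and 0 without the Ddx3y-high libraries. At steady state AhR-/- went from 0 to 11 with the likelihood ratio test and limma voom and 13 with DESeq2, and CYP1B1-/- from 2 to 5 with DESeq2, 8 with limma voom and 0 with the block. Between the states in AhR-/- they went from 3435 to 1532 without steady-state replicate 4 and 2208 with only the Ddx3y-high libraries. Upper-quartile normalization moved the median of all genes between the states from -0.05 to 0.12 in AhR-/- and from -0.02 to 0.13 in CYP1B1-/-, and the share of calls that were higher in AhR-/- from 51.1 to 62.8%, while the medians of the 10 genes were 3.52 and 3.17. Cfb and Saa3, with 1 to 13 reads per steady-state library, were not tested between genotypes at steady state.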
